A study of Mus musculus with 20 samples.

Results

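The mitochondrial ribosomal protein genes were taken as every row of the deposited gene table whose name starts with Mrpl or Mrps followed by a digit, with pseudogenes marked -ps left out. This gave 78 genes of the 16014 named genes in the table, 49 named for the large subunit (Mrpl) and 29 for the small subunit (Mrps). The table came from bulk RNA sequencing of wild-type mouse blastocysts of the strain F1 C57BL/6Jx129S1/SvlmJ, each library made from a pool of 10 embryos. Every embryo had been microinjected as a zygote and then cultured in KSOM medium. The vehicle group (n = 7) received nuclease-free water. The Str let-7f group (n = 8) received a let-7f-5p microRNA mimic at a concentration modelled on sperm after stress. The 2x Str let-7f group (n = 5) received more of the same mimic, at the 2x concentration that the labels call supraphysiological. No group analysed here received an unrelated mimic, and the comparison with vehicle is therefore one of mimic against water.

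Mitochondria keep their own ribosome, which translates the few membrane proteins of the respiratory chain and ATP synthase that mitochondrial DNA encodes. Its ribosomal RNAs come from mitochondrial DNA, whereas all of its proteins are encoded in the nucleus, made on cytosolic ribosomes and imported. Some of these proteins descend from bacterial ribosomal proteins and others are found only in mitochondrial ribosomes. Blastocysts rely on oxidative phosphorylation more than earlier cleavage stages do, and let-7 microRNAs lower mRNAs that carry matches to their seed in the 3′ untranslated region.

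The mimic's sequence is shown first, because its seed defines the matches that were searched for in the 78 genes. The RefSeq mature miRNA was identical to the sequence that the labels give for the mimic, and the capitals mark the seed, bases 2 to 8.
mmu-let-7f-5p: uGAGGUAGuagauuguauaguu
A match was counted where the 3′ untranslated region of the GENCODE M21 transcript (GRCm38) held CTACCTC or TACCTCA, with CTACCTCA as the longest, 8-base form. All 78 genes had such a region, with a median length of 327 bases, and 7 of them (8.97%) held a match. Of the 13065 tested genes with a region, whose median length was 1048 bases, 16.1% held one. The 8-base form stood in 2 of the 78 (2.56%) and in 3.42% of all. The 7 matches are shown with their flanks, the match in capitals. Shorter matches, other transcripts and other parts of the mRNA were not searched.
Mrpl15: agcagagtggCTACCTCAcatagaagaa
Mrps25: gatgccatgaCTACCTCAgaacaccatc
Mrpl17: gtatggggcaCTACCTCctggctcagt
Mrpl21: tcctctgtctCTACCTCgcatctcctg
Mrpl51: cctcctgcctCTACCTCcagagtgaca
Mrpl19: ggcatacataTACCTCAtgatcaggct
Mrpl34: gcacctgcgaTACCTCAtccatttctg
The match in Mrpl15 (chromosome 1) starts at base 1104 of a region of 3253 bases, and that in Mrps25 (chromosome 6) at base 4498 of 5497. Both lie in regions far longer than the members' median. Cytosolic ribosomal protein genes, with a median region of 78.5 bases, held a match in 2 of 76 (2.63%).

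Promoters were examined for letters that are bound by factors known to regulate nuclear genes for mitochondrial proteins. RefSeq windows (GRCm38.p6) from 250 bases before to 50 bases after the start were found for 69 of the 78 genes. Both strands were searched for short core letters, GCATGCG (NRF1), CCGGAAG (ETS factors such as GABP) and ATGGCGG (YY1). The NRF1 letters nearly read the same on both strands and so can match them in one place, and in no printed window did matches of different kinds overlap. The NRF1 letters stood in 8 members (11.6%) against 6.18% of the 11380 windows of all genes in the table. The ETS letters stood in 25 (36.2%) against 16.8%, and the YY1 letters in 13 (18.8%) against 7.70%. At least 1 of the 3 kinds stood in 36 members (52.2%), against 27.1% of all windows. In the 60 windows of cytosolic ribosomal protein genes the shares were 6.67% for NRF1, 38.3% for ETS and 15% for YY1, and 53.3% held any of them. Of the members 8 held 2 kinds and 1, Mrpl22, all 3. Mrpl22 (chr11:58171414-58171713, plus strand) and, as a small subunit example, Mrps27 (chr13:99344536-99344835, plus strand, ETS and YY1 letters) are printed because they hold several kinds, with the matches in capitals on whichever strand they were found.
Mrpl22: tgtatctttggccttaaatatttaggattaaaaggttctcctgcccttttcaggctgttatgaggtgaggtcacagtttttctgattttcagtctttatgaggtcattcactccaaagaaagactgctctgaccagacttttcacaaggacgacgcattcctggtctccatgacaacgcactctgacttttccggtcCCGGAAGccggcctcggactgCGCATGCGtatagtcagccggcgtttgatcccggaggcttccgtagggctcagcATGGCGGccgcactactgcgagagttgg
Mrps27: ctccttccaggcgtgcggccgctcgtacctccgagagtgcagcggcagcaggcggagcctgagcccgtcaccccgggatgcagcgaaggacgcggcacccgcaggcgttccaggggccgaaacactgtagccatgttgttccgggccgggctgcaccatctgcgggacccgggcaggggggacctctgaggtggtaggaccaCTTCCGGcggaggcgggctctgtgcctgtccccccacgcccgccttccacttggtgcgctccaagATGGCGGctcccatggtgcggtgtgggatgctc
A match describes the letters and not a bound site.

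The libraries held 1.54 to 58.8 M reads assigned to genes, with group medians of 10.5 M (vehicle), 12.4 M (Str let-7f) and 5.04 M (2x Str let-7f), so 3 reads corresponded to 0.0510 to 1.94 reads per 1 M. Values below are the authors' normalized counts, and fold changes are differences of log2(normalized count + 1) between group means, which understate changes of low genes. As a check of the labels, Lin28a, which holds back the processing of let-7 precursors, had a log2 fold change of -1.44 at the lower and -1.21 at the higher concentration, and all 4 targets checked (Lin28a, Trim71, Igf2bp1 and Nr6a1) were called lower than vehicle in both mimic groups by limma, edgeR and DESeq2. None of 7 trophectoderm and none of 5 epiblast markers was called by limma, although DESeq2 called the epiblast marker Klf2 in both mimic groups, while 2 of 5 primitive endoderm markers were lower with Str let-7f (Gata4 and Sox7, of which edgeR called Gata4) and 1 with 2x Str let-7f (Gata4, not called by edgeR, whereas DESeq2 called Gata4 and Sox7 in both mimic groups). The summed level of those 5 ranged from 5002 to 7379 in vehicle, from 4268 to 7024 with Str let-7f and from 5537 to 7674 with 2x Str let-7f, and its part in the results below was not tested. Most of that sum was Gata6 and Pdgfra. Gata4 ranged from 835 to 1310 in vehicle, 215 to 816 with Str let-7f and 150 to 651 with 2x Str let-7f. Sox7 ranged from 214 to 452, 6.33 to 226 and 18.9 to 154 in the same order. Of the 5 markers, 4 had a log2 fold change below 0 and 1 above 0 in each mimic group. Of the cumulus and blood markers, only Cyp19a1 (0 to 22.4) and Ptprc (0 to 27.7) were in the table. In a pool of whole embryos, fewer cells of a type and less RNA per cell cannot be told apart. Whether the pools differ in mothers or in injection day is not stated, and the p-values reflect only the pool-to-pool spread.

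All 78 genes were detected well enough to be tested, each with at least 10 normalized counts in at least 5 libraries, as were 15068 genes in all. Their median level in vehicle was 295 normalized counts, 2 members lay under 50 and 1 over 1000. Only 1 of the members was at 0 reads in any library, Mrpl14 in Str let-7f replicate 9, which was also the shallowest library. The highest large subunit member in vehicle was Mrpl12 (1012 ± 162 normalized counts, SD, n = 7), which forms the stalk that recruits translation factors. Mrpl18, of the central protuberance, followed at 975 ± 183, and Mrpl17, which lies near the exit tunnel, at 846 ± 154. Their spreads overlap, so the order of these 3 is not resolved. The lowest were Mrpl14 (50.6), Mrpl34 (34.7) and Mrpl52 (13.4), whose libraries held between 1 and 81 reads for Mrpl52.

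Among small subunit genes, Mrps18b, one of several paralogs of a bacterial protein, was highest at 870 normalized counts, ahead of Mrps5 (693) and Mrps2 (691). Mrps11 (108), Mrps33 (75.2) and Mrps21 (63.0) were lowest. Per kilobase of transcript, Mrps18b (807 ± 89.5), Mrpl18 (800 ± 150) and Mrpl12 (769 ± 123) led in vehicle and did not differ beyond their spread. Mrpl52 was last with 32.0 ± 22.3 per kilobase. Which length is used matters for the order: Mrpl17, whose annotated transcript is long because of its 3′ untranslated region, ranked 55 of 78 per kilobase of transcript and 3 per kilobase of coding sequence. Of the top 10 by each length, 6 were shared, and the ranks by the 2 lengths had a Spearman rho of 0.507 across the 78 genes, which are not independent replicates and share the same counts.

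Summed over all 78 genes, mitoribosomal mRNAs took up 0.220% to 0.283% of the reads of each library. Vehicle pools held 2614 ± 148 reads per 1 M (SD, n = 7, range 2322 to 2766). The Str let-7f pools held 2659 ± 123 (n = 8, 2455 to 2828) and the 2x Str let-7f pools 2567 ± 261 (n = 5, 2198 to 2834). The group ranges overlapped along most of their length, and the means differed by less than the SD within any group. Vehicle replicate 2 was the lowest vehicle pool, and 2x Str let-7f replicate 1 was the lowest of all.

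**Figure D1:**
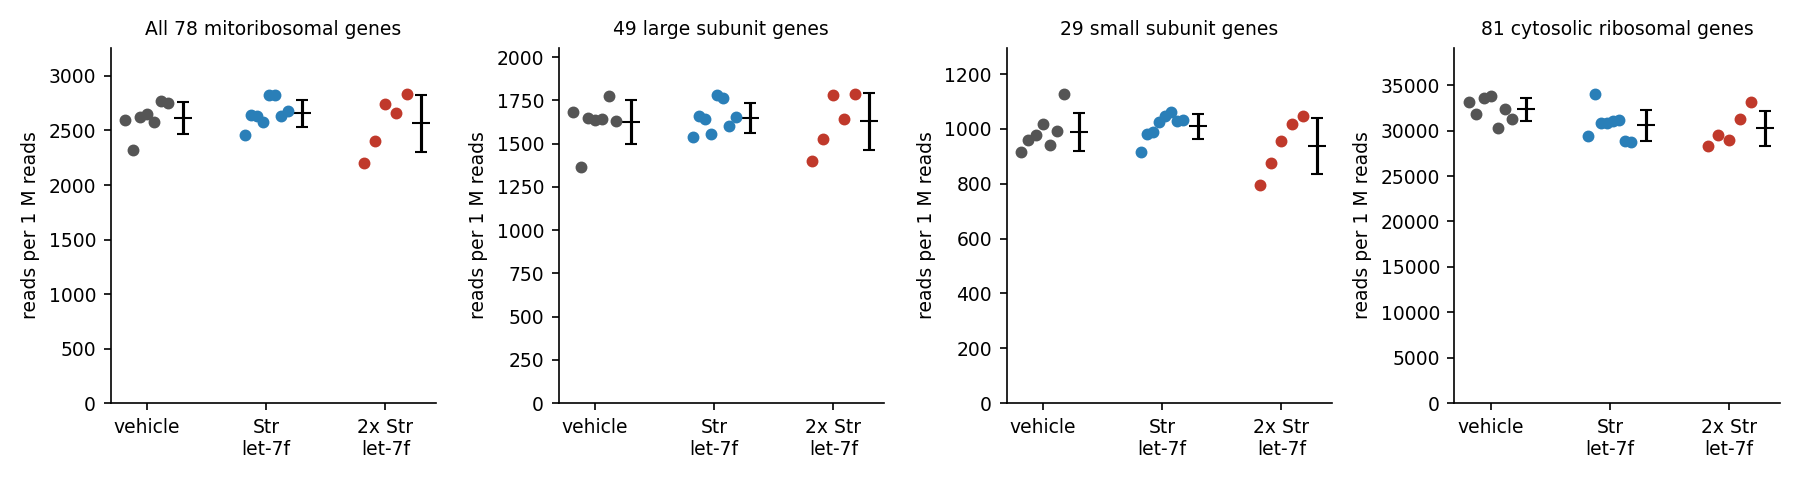
Summed reads per 1 M reads (y axis, from 0) of all 78 mitoribosomal genes, the large subunit, the small subunit and the 81 cytosolic ribosomal genes, by library (points) with group mean and SD (bars), for vehicle, Str let-7f and 2x Str let-7f. The large subunit sums average 1625, 1650 and 1629 and the small subunit sums 990, 1009 and 938, with overlapping groups in each panel.

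The ratio of the subunits' mRNAs overlapped between all groups, as the plot of sums by library shows. Large subunit mRNAs summed to 1625 ± 126 reads per 1 M in vehicle, 1650 ± 88.1 at the lower concentration and 1629 ± 167 at the higher. Small subunit mRNAs summed to 990 ± 69.2, 1009 ± 46.1 and 938 ± 103 in the same order. The ratio of large to small was 1.65 ± 0.163 for vehicle (1.42 to 1.84), 1.63 ± 0.067 for Str let-7f (1.52 to 1.70) and 1.74 ± 0.091 for 2x Str let-7f (1.62 to 1.87). The lowest ratio belonged to vehicle replicate 2, whose large subunit sum of 1363 was also the lowest of all 20 libraries. Cytosolic ribosomal mRNAs summed to 32360 ± 1284, 30610 ± 1709 and 30244 ± 1940, and exceeded the mitoribosomal sum by 12.4 ± 0.83, 11.5 ± 0.74 and 11.8 ± 0.86 times.

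The first comparison asked which transcripts differed at the blastocyst stage after the stress-relevant concentration. No mitoribosomal gene was called between Str let-7f and vehicle: 0 of 78 had a limma adjusted p (Benjamini-Hochberg over the 15068 genes) under 0.05, where 2.63% of all genes did. At an unadjusted p under 0.05 there were 5 members (6.41%), 3 higher and 2 lower, against 14.9% of all genes (8.15% higher and 6.78% lower). The edgeR quasi-likelihood test on recovered reads called 0 as well (6 members at an unadjusted p under 0.05), against 2.77% of all genes. DESeq2 called 1, Mrpl45 (7 members at an unadjusted p under 0.05), against 5.09% of all. In no member did the groups fail to overlap, against 0.849% of all genes.

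The member nearest to a call was Mrpl45 on chromosome 11, a mitochondria-specific protein that anchors the ribosome to the inner membrane at the mouth of the exit tunnel. It had 474, 567 and 693 normalized counts in vehicle (lowest, median, highest) and 579, 758 and 1039 in Str let-7f. Of the 8 Str let-7f pools, 4 lay above every vehicle pool, and the remaining 4 within the vehicle range. The log2 fold change was 0.46 ± 0.14 (SE), a 1.37-fold higher mean with a 95% interval of 1.12 to 1.68, and a limma adjusted p of 0.0952. The call depended on the tool and on 1 library: DESeq2 gave 0.47 with an adjusted p of 0.0246, and leaving out Str let-7f replicate 1 gave 0.51 with a limma adjusted p of 0.0493 (2.73% of all genes called in that fit), while edgeR gave 0.47 with an adjusted p of 0.0816. Over the leave-one-out fits the estimate ran from 0.39 to 0.51.

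Mrpl35 (chromosome 6), with a bacterial counterpart, had the smallest p among members with a lower mean in Str let-7f. It had 356, 530 and 638 normalized counts in vehicle and 190, 373 and 508 in Str let-7f, where 4 of 8 pools lay below all vehicle pools. Its log2 fold change was -0.55 ± 0.20, with an interval of -0.95 to -0.14 and a limma adjusted p of 0.161. Mrpl18 (chromosome 17) had 782, 930 and 1322 normalized counts in vehicle and 650, 802 and 836 in Str let-7f, a log2 fold change of -0.31 ± 0.13 with an adjusted p of 0.231 by limma. Its Str let-7f pools were the tighter group, and 3 of them lay below all vehicle pools. Neither gene passed the threshold by limma, edgeR or DESeq2.

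Among members with a higher mean, Mrps22 and Mrpl49, both without a bacterial counterpart, came next. Mrps22 (chromosome 9) had 270, 321 and 391 normalized counts in vehicle and 352, 389 and 469 in Str let-7f, a log2 fold change of 0.31 ± 0.13 and a limma adjusted p of 0.248. The same gene averaged 316 in 2x Str let-7f, close to the vehicle mean of 323. Mrpl49 (chromosome 19) had 144, 188 and 273 normalized counts in vehicle and 168, 268 and 507 in Str let-7f, a log2 fold change of 0.50 ± 0.21 with an adjusted p of 0.248 by limma. In each gene 4 of 8 Str let-7f pools exceeded every vehicle pool and the others overlapped. The remaining members named by the 5 smallest p-values in each direction were Mrpl17 (0.24) and Mrps6 (0.46) with higher means, and Mrps18b (-0.18), Mrps25 (-0.39) and Mrpl47 (-0.44) with lower means, at limma adjusted p from 0.338 to 0.563.

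**Figure D2:**
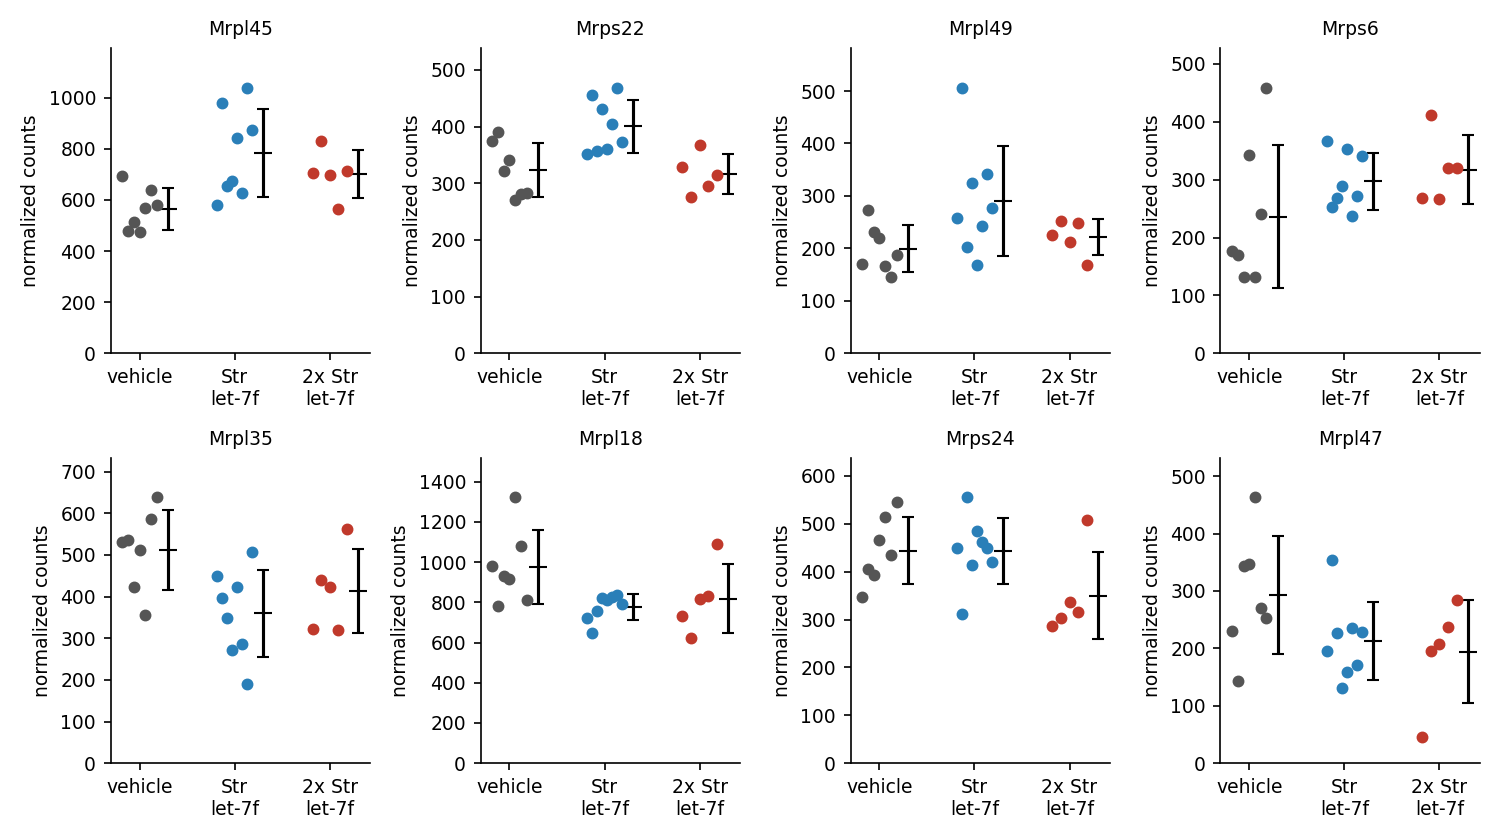
Normalized counts by library (points, y axis from 0) with group mean and SD (bars) for 8 members with small p-values or large differences, in vehicle, Str let-7f and 2x Str let-7f. In Mrpl45 4 of 8 Str let-7f pools lie above all vehicle pools, in Mrpl35 4 of 8 lie below, and no gene shows groups without overlap.

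The second comparison set the higher concentration against vehicle. No member passed: 0 of 78 were called by limma against 1.89% of all genes, and 0 by edgeR (1.79% of all genes) and by DESeq2 (4.11%). At an unadjusted p under 0.05 limma gave 2 members (2.56%), 1 higher and 1 lower, against 12.9% of all genes (7.07% higher and 5.81% lower). The same threshold gave 0 members by edgeR and 1 by DESeq2. No member's groups failed to overlap, against 2.25% of all genes.

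The 2 members were small subunit genes. Mrps6 (chromosome 16) had 268, 412, 266, 320 and 320 normalized counts in the 5 pools of 2x Str let-7f, against 131, 177 and 459 in vehicle (lowest, median, highest). All 5 lay within the vehicle range, which was wide, and the log2 fold change was 0.55 ± 0.26 with an adjusted p of 0.373 by limma. Reads of Mrps6 also fall on same-strand neighbours, since 36.1% of its transcript overlaps exons of Gm49711 and 18.8% exons of Slc5a3, so its counts are uncertain. Mrps24 (chromosome 11), the counterpart of a bacterial protein at the mRNA entry site, had 286, 304, 336, 315 and 508 in 2x Str let-7f against 347, 435 and 546 in vehicle. Replicates 1 to 4 lay below every vehicle pool and replicate 5 near the top of the vehicle range. The log2 fold change of Mrps24 was -0.36 ± 0.17 with a limma adjusted p of 0.375, and -0.50 without replicate 5 (adjusted p 0.172).

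Mrpl47, which lies near the exit tunnel, had the lowest log2 fold change of the 78 in 2x Str let-7f, -0.73 ± 0.36 (limma adjusted p 0.399). Its 5 values were 46.0, 196, 207, 238 and 285 normalized counts, against 144, 271 and 463 in vehicle. Replicate 1 alone lay below the vehicle range, with 23 reads, and without it the log2 fold change was -0.27 (adjusted p 0.755). Mrpl45 again had a higher mean, 702 ± 94.3 normalized counts, and 4 of its 5 pools exceeded all vehicle pools, with a log2 fold change of 0.32 ± 0.16 and a limma adjusted p of 0.414. Both comparisons share the vehicle pools, so this is not a second independent observation. The other named members were Mrpl36 (0.44), Mrpl10 and Mrpl11, of the stalk base, with higher means, and Mrpl50 (-0.62), Mrpl18 (-0.26) and Mrpl46 (-0.37) with lower means, none passing by limma, edgeR or DESeq2.

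The third comparison set the 2 concentrations against each other. No member was called by limma, edgeR or DESeq2, where the share of all genes called was 0, 0.00664% and 0.0664%. At an unadjusted p under 0.05 limma gave 2 members (2.56%), both lower at the higher concentration, against 4.04% of all genes (2.1% higher and 1.94% lower), and edgeR and DESeq2 gave 1 each. The 2 were Mrps22 (log2 fold change -0.34 ± 0.15) and Mrps24 (-0.36 ± 0.17), each with a limma adjusted p of 0.9997. For Mrps22 the 5 values at the higher concentration were 328, 275, 368, 294 and 315 normalized counts, and 4 of them lay below all 8 Str let-7f pools, while the fifth lay within the range of 352 to 469. Mrps10 (-0.49), Mrpl20 (-0.51) and Mrps17 (-0.34) were next among lower means, and Mrpl23 (0.32), Mrpl9 (0.23), Mrpl15 (0.27), Mrpl32 (0.63) and Mrpl36 (0.26) among higher means, all at a limma adjusted p of 0.9997. Groups overlapped in all 78 members, against 0.0796% of all genes without overlap. Several of these values moved with 1 library. Mrpl32 held 12.7 normalized counts in Str let-7f replicate 9 against 127 to 265 in the other Str let-7f pools. Its log2 fold change was 0.16 without that pool, 0.93 without 2x Str let-7f replicate 1, and -0.16 in libraries over 5 M reads. Mrps10 went to -0.26 without 2x Str let-7f replicate 4 (-0.07 in libraries over 5 M reads), Mrpl20 to -0.29 without Str let-7f replicate 1 and Mrps17 to -0.19 without Str let-7f replicate 9.

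**Figure D3:**
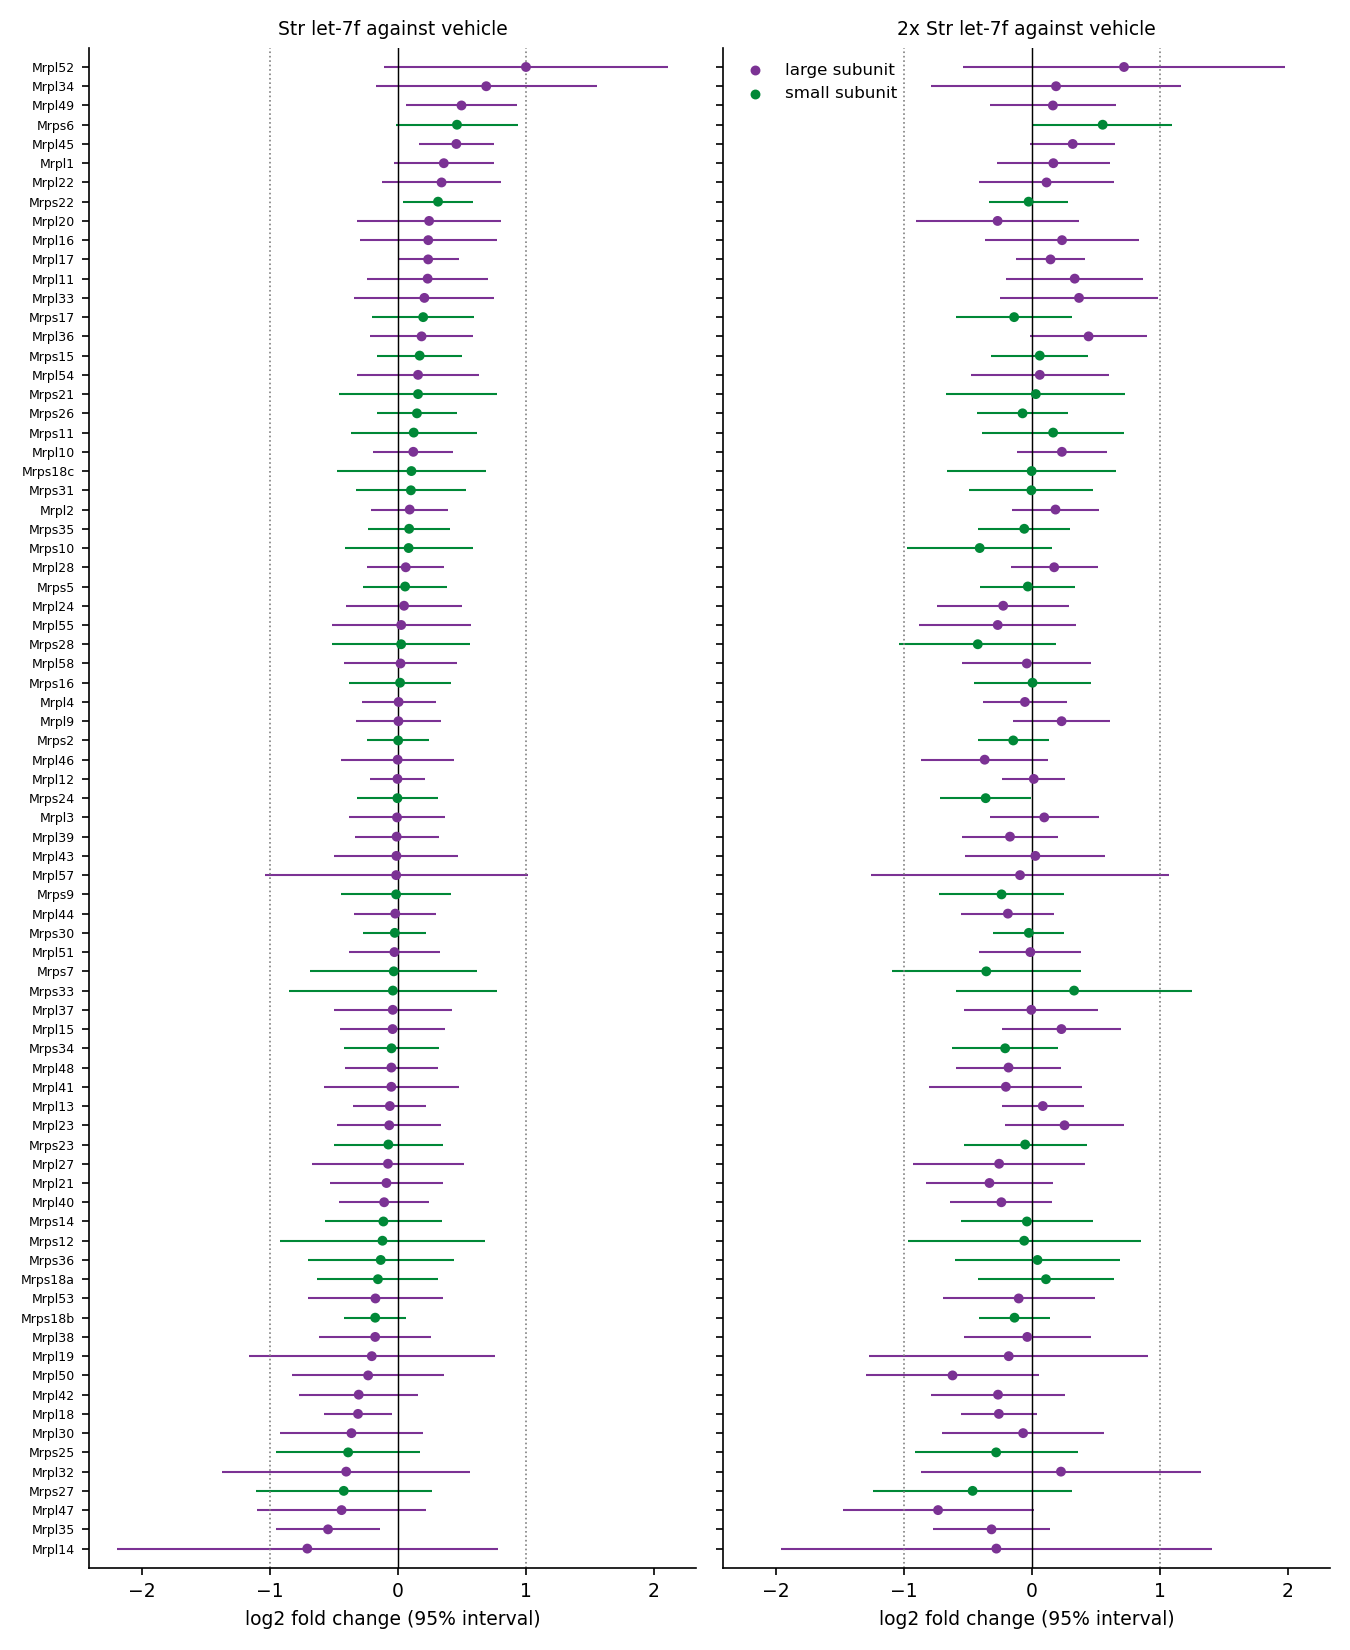
Log2 fold change (points) with 95% limma interval (lines) for each of the 78 members, ordered by the comparison of Str let-7f with vehicle (first panel), with 2x Str let-7f against vehicle in the other panel and dotted lines at -1 and 1. In 70 and 65 members the whole interval lies between the dotted lines, and those of Mrpl52 and Mrpl14 are among the wide ones.

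A missed threshold does not show that a gene did not differ, so the intervals bound what could have been missed. In Str let-7f against vehicle, 70 of 78 members (89.7%) had a 95% interval wholly within -1 to 1 on the log2 scale, against 52.4% of all genes, and 41 within 1.5-fold either way. In 2x Str let-7f against vehicle 65 (83.3%) lay within -1 to 1 against 47.6% of all, and 27 within 1.5-fold. Between the concentrations 65 (83.3%) lay within -1 to 1 against 52.7%, and 32 within 1.5-fold. Estimates themselves were small: an absolute log2 fold change over 0.5 was found in 4 members (5.13%) against 28.8% of all genes, in 4 (5.13%) against 30.8%, and in 3 (3.85%) against 23.2%. The extremes in the first comparison were low genes, Mrpl52 at 1.00 ± 0.54 and Mrpl14 at -0.71 ± 0.72. The members' median level over all libraries was 281 normalized counts against 181 for all genes tested, and the part of level in the widths of the intervals was not tested.

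As a group, the members were centred close to 0. The median log2 fold change at the lower concentration was -0.0049, with 36 genes above 0 and 42 below, beside a median of -0.016 over all genes. At the higher concentration it was -0.037 (31 above, 47 below) beside -0.0067, and between the concentrations -0.060 (35 above, 43 below) beside 0.0027. Large subunit genes had medians of -0.0095, -0.011 and -0.0013 in these 3 comparisons, and small subunit genes 0.0024, -0.052 and -0.105. The largest gap between the subunits was therefore that between the concentrations, where 18 of 29 small subunit genes and 25 of 49 large subunit genes lay below 0. That gap, 0.104, ran from 0.021 (without 2x Str let-7f replicate 3) to 0.187 (without 2x Str let-7f replicate 4), and the one against vehicle at the higher concentration, 0.040, from -0.00016 (without 2x Str let-7f replicate 3) to 0.171 (replicate block). Within libraries the large minus small difference was -0.0043 ± 0.176 (SD) in vehicle, 0.017 ± 0.093 with Str let-7f and 0.081 ± 0.105 with 2x Str let-7f, with overlapping ranges. Subunits were taken from the gene names. Counting Mrps30 and Mrps18a as large subunit and leaving out Mrps36 moved the gaps by less than 1 SD between libraries (0.131), which is larger than the gaps themselves. Genes with a bacterial counterpart (44) had medians of 0.012, 0.011 and 0.0086, and genes without one (29) -0.024, -0.059 and -0.105. Of the 29, 20, 23 and 19 lay below 0, where 7809, 7637 and 7472 of all 15068 genes did. The other 5 members were not classed, and how this split varies between libraries was not tested.

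**Figure D4:**
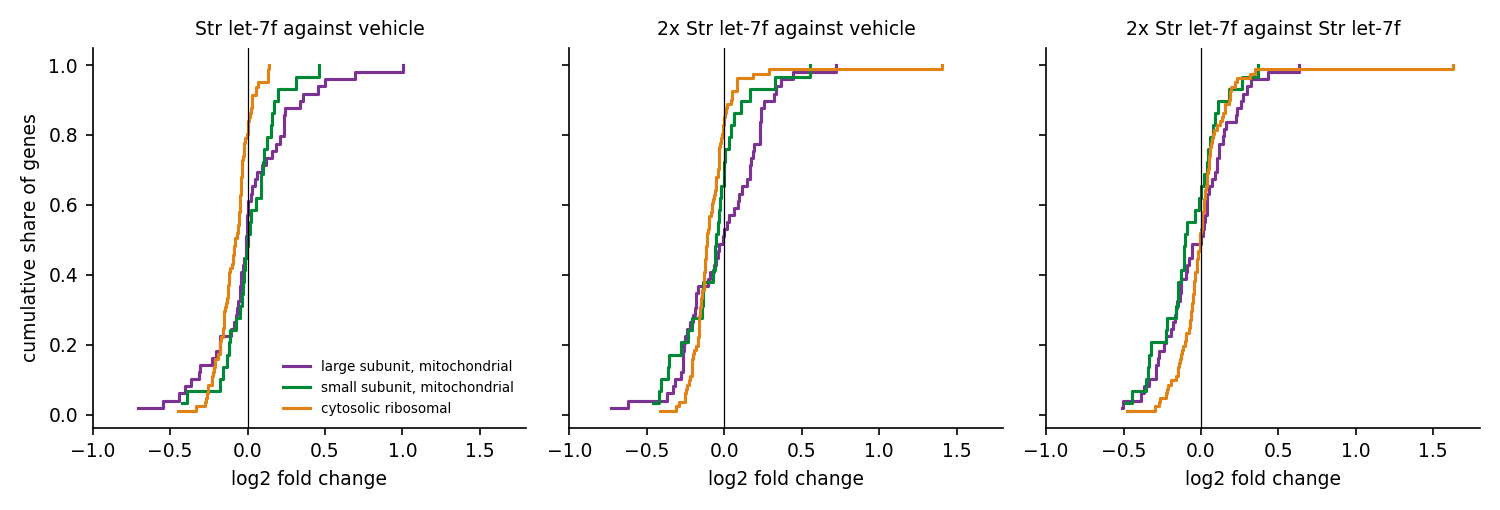
Cumulative share of genes (y axis) by log2 fold change (x axis) in each of the 3 comparisons for large subunit, small subunit and cytosolic ribosomal genes, with a line at 0. The mitoribosomal curves cross the middle at medians between -0.105 and 0.0024, and the cytosolic curves at -0.081 and -0.110 against vehicle.

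Cytosolic ribosomal protein genes were taken by name: Rpl or Rps followed by a digit, Rplp0 to Rplp2 and Rpsa. Pseudogenes marked -ps, Rps6k kinases and -like genes were left out, but retrocopies and genes that only carry such a name were not. These 81 genes (47 Rpl and 34 Rps) were set beside the mitochondrial ones. Their median log2 fold changes were -0.081 (Str let-7f against vehicle), -0.110 (2x Str let-7f against vehicle) and -0.0048 (between the concentrations), with 65, 69 and 43 of 81 below 0. None was called by limma, edgeR or DESeq2 in any of the 3 comparisons, and limma gave 8 (9.88%), 4 (4.94%) and 3 (3.70%) genes at an unadjusted p under 0.05, against 14.9%, 12.9% and 4.04% of all genes. The mitoribosomal median thus lay 0.076 above the cytosolic median at the lower concentration and 0.073 above it at the higher, and between the concentrations the difference was -0.055. Leaving out retrocopies and genes that only carry the name moved each difference by less than 1 SD between libraries (0.094), which is larger than the differences themselves. These differences depended on the libraries: against vehicle, the first ran from 0.033 (quantile normalization) to 0.132 (libraries over 5 M reads) and reached 0.116 without vehicle replicate 8, and the second ran from 0.0099 (without 2x Str let-7f replicate 3) to 0.113 (libraries over 5 M reads). Taken within each library, as the median distance from the vehicle mean, the mitoribosomal minus cytosolic difference was -0.0025 ± 0.108 (SD) in vehicle, 0.155 ± 0.085 with Str let-7f and 0.072 ± 0.097 with 2x Str let-7f. The ranges were -0.186 to 0.112, -0.026 to 0.266 and -0.058 to 0.208 in that order, and they overlapped. For Str let-7f the gap to vehicle was wider by this measure than the 0.076 above. The 2 measures take the median at different steps, here within each library and above over fold changes of group means. The 7 members with a let-7 match shown above had medians of -0.041, -0.011 and 0.015, beside -0.0030, -0.038 and -0.060 for the 71 without one. None of the 7 was called by limma, edgeR or DESeq2, and 5 of them lay below 0 at the lower concentration, 4 at the higher and 3 between the concentrations, where 7809, 7637 and 7472 of all 15068 genes did. Of those with the 8-base form, Mrps25 had log2 fold changes of -0.39 at the lower concentration (-0.23 without Str let-7f replicate 5) and -0.28 at the higher, and Mrpl15 of -0.04 and 0.23.

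The members differed widely in how much they varied between vehicle pools. Mrps30, which sits in the large subunit in known structures in spite of its name, was the steadiest with a coefficient of variation of 9.45%, and ranged from 435 to 573 normalized counts. Mrps16 (9.88%) and Mrps23 (10.5%) followed. At the other end were Mrps12 (78.9%), a protein of the decoding centre, Mrpl52 (69.6%) and Mrpl19 (55.9%), beside a median of 21.6% over the 78. In Mrps12 1 pool stood apart, vehicle replicate 8 at 573 normalized counts against 93.9 to 260 in the other 6, and a second pool, 2x Str let-7f replicate 1, reached 548. The residual SD of log2 values had a median of 0.39 in the members, 0.585 over all genes and 0.204 in the cytosolic ribosomal genes, whose median level was 2806 normalized counts.

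**Figure D5:**
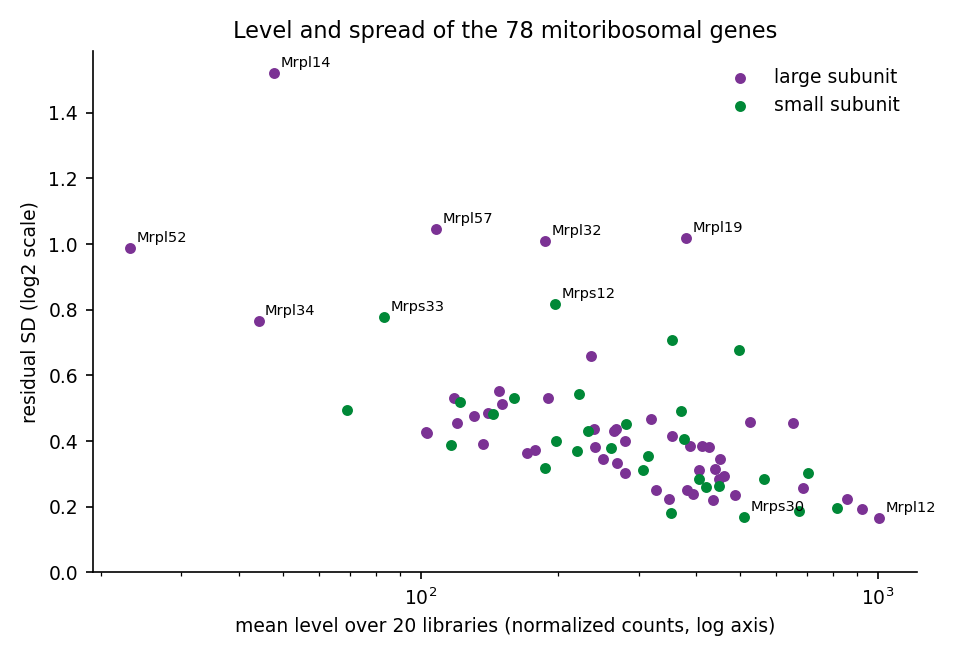
Residual SD of log2(normalized count + 1) between pools of a group (y axis) against mean level over all 20 libraries (x axis, log scale) for the 49 large and 29 small subunit genes. The median SD is 0.39 at a median level of 281, with Mrpl14, Mrpl57, Mrpl19 and Mrpl32 highest and Mrps30 and Mrpl12 among the lowest.

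Annotation sets a limit on some members. In GENCODE M21 5 of the 78 share exon bases with a gene on the same strand, among them Mrpl53, whose whole transcript overlaps Gm42688, and 24 share them with a gene on the opposite strand. Mrps25 overlaps Nr2c2 antisense over 75.6% of its transcript, Mrps34 overlaps Mapk8ip3 over 62.8%, and Mrpl18 overlaps Tcp1 over 11.6%. Over 16.4% of its transcript Mrps11 overlaps annotated exons of Mrpl46 on the opposite strand, though not those of the Mrpl46 transcript used here. Whether the authors' counting used strand is not given in the sources used here, so how reads from the shared bases of such pairs were assigned is not known.

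Further genes of mitochondrial translation and related lists gave no call by limma either. The lists held other subunits, assembly factors, translation factors, synthetases, transcription and DNA maintenance genes, mitochondrially encoded genes and regulators of nuclear genes for mitochondria. Of 96 genes in these 7 lists 0 passed in any comparison, where 2.63%, 1.89% and 0% of all genes did. At an unadjusted p under 0.05 limma gave 11 (11.5%), 6 (6.25%) and 4 (4.17%), against 14.9%, 12.9% and 4.04% of all genes. By edgeR 1, 0 and 0 were called (12, 8 and 5 at an unadjusted p under 0.05), against 2.77%, 1.79% and 0.00664% of all genes. By DESeq2 1, 2 and 0 were called (13, 10 and 5), against 5.09%, 4.11% and 0.0664% of all. The mitochondrially encoded genes were the nearest to a call in Str let-7f. Transcripts of mt-Nd1, a complex I subunit that mitochondrial ribosomes translate, averaged 14576 ± 2633 normalized counts in Str let-7f and 11254 ± 793 in vehicle. The log2 fold change of mt-Nd1 was 0.36 ± 0.10, with an adjusted p of 0.0531 by limma, 0.0472 by edgeR and 0.0192 by DESeq2. For mt-Nd2 it was 0.30 with a limma adjusted p of 0.171, and the 10 mitochondrially encoded genes in the table had a median of 0.063.

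Mtfmt, which formylates the initiator methionyl-tRNA of mitochondria, averaged 84.0 ± 22.1 normalized counts in 2x Str let-7f and 200 ± 99.1 in vehicle, and the groups did not overlap, as in 2.25% of all genes. Vehicle replicate 8 stood apart at 419 normalized counts of Mtfmt, where the other vehicle pools held 127 to 192. The log2 fold change of Mtfmt was -1.18 ± 0.33, with an adjusted p of 0.0686 by limma, 0.0589 by edgeR and 0.0060 by DESeq2. In libraries over 5 M reads the log2 fold change of Mtfmt was -0.70 (limma adjusted p 0.315) and with the replicate block -0.79 (0.194). At the lower concentration Mtfmt had -0.64 with a limma adjusted p of 0.298, and -0.22 and -0.23 under those alternatives. Prorp, the nuclease subunit that trims mitochondrial tRNA precursors, was called by DESeq2 alone in 2x Str let-7f, at 1.18 with an adjusted p of 0.0344, against 1.04 and 0.206 by limma. The 5 pools of 2x Str let-7f held 254, 247, 97.3, 248 and 72.3 normalized counts of Prorp, against 49.5 to 103.5 in vehicle. Replicates 3 and 5, the deepest of the group (25.5 and 27.2 M reads), lay within the vehicle range, and the part of depth was not tested.

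Among other listed genes in Str let-7f, the assembly factors Rbfa (0.58) and Mettl17 (-0.63), the synthetase Tars2 (-0.40) and the mitochondrial transcription factor Tfam (-0.50) had limma adjusted p from 0.177 to 0.220. Of the regulators of nuclear genes for mitochondria, Myc was at -0.75 (limma adjusted p 0.107, and -0.87 with 0.0441 without Str let-7f replicate 1) and Yy1 at -0.40 (0.165). In 2x Str let-7f, Chchd1, a further small subunit protein, was at -0.87 (limma adjusted p 0.244) and Noa1, an assembly GTPase, at 0.74 (0.273). With all libraries, none of these passed by limma, edgeR or DESeq2. The 5 other subunits without an Mrpl or Mrps name had a median log2 fold change of 0.10 at the lower and -0.039 at the higher concentration.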

How the data were processed

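Stranded total RNA libraries, depleted of ribosomal RNA, were made from 20 blastocyst pools. The submitters' processing notes list DESeq2 1.48.2, FastQC 0.12.1, kallisto 0.50.1, MultiQC 1.28, Trimmomatic 0.39 and build GRCm39. How transcripts were summed to genes, and whether strand was used, is not given in the sources used here. The authors deposited normalized counts (a signal: counts divided by a size factor). Whole counts, called reads here, were recovered from them, and 100% of values came out whole within 0.01. Whether they were rounded from kallisto's estimates is not given in the sources used here. The row with no gene name held 0.0286% to 0.0618% of reads and was left out.

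Genes with at least 10 normalized counts in at least 5 libraries were tested on log2(value + 1) with limma 3.58.1 (R 4.3.3, trended prior, all 20 libraries in 3 groups, no covariate, two-sided, Benjamini-Hochberg over 15068 genes). edgeR 4.0.16 and DESeq2 1.42.0 on recovered reads, other filters, pseudocounts, scalings, array weights, a replicate block, libraries over 5 M reads and leaving out each library were the alternatives. The code was tested on simulated data. Members, lists and tests were chosen with earlier results of these data known. Genes named are members that passed, the 5 smallest p-values per direction and comparison, the 3 highest and lowest in vehicle per subunit, the 3 most and least variable, and up to 2 genes per pathway list; further genes were picked after their values were seen. Sequences are from RefSeq (GRCm38.p6) and GENCODE M21, matched by symbol. Promoter letters were shortened to cores after shares of longer forms had been seen.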

Additional observations from a re-analysis of the deposited data

Results flagged for a closer look

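Of 132 group checks on summed levels, on single named members and on Lars2, 17 had a pool whose distance from the rest of its group was large relative to the group's range. The nominal chance rate of about 1 in 20 assumes normally distributed values. Some members checked were named for their large variation in vehicle, so this rate is no yardstick for the 17. Of the 17, 2 concern vehicle replicate 2, which had the lowest mitoribosomal sum of its group (2322 reads per 1 M, the others 2581 to 2766) and the lowest large subunit sum (1363, the others 1629 to 1775). Str let-7f replicate 2 had the highest cytosolic ribosomal sum of its group, 34017 reads per 1 M against 28704 to 31195. Vehicle replicate 5 had 5.39% of its reads on the mitochondrial synthetase gene Lars2, where the 6 remaining pools of its group had 0.637% to 1.94%. In vehicle Lars2 held 62140 to 535800 normalized counts, where another listed synthetase gene, Iars2, held 903 to 1241. Whether the reads assigned to Lars2 come from its mRNA was not tested.

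Str let-7f replicate 1, a library of 5.10 M reads, stood apart in 4 large subunit genes: it was lowest for Mrpl15 (170.3 normalized counts, the others 339 to 469) and highest for Mrpl20 (604.9, the others 135 to 275), Mrpl50 (254.5, the others 56.2 to 146) and Mrpl52 (103.7, the others 6.33 to 41.4). In the same group Mrpl11 was highest in replicate 7 (439.6 normalized counts, the others 179 to 280), Mrpl47 in replicate 2 (354.1, the others 131 to 235), Mrps17 in replicate 9 (690.3, the others 226 to 432) and Mrps21 in replicate 5 (151.7, the others 42.9 to 84.2).

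In 2x Str let-7f, Mrps12 was highest in replicate 1 (548.0 normalized counts, the others 87.8 to 193), Mrps21 in replicate 4 (134.3, the others 46.0 to 61.4) and Mrps24 in replicate 5 (507.8, the others 286 to 336). In vehicle, Mrps12 was highest in replicate 8 (573.3 normalized counts, the others 93.9 to 260) and Mrps25 in replicate 5 (418.2, the others 185 to 243).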

How the results depend on the processing

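The count of mitoribosomal genes called in Str let-7f against vehicle was 0 and became 1 (Mrpl45) under DESeq2; leaving out 1 library at a time gave 0 to 1, with 1 without Str let-7f replicate 1. In the other 2 comparisons it was 0 under every alternative run. The mitoribosomal minus cytosolic median between the concentrations, -0.055, became 0.0513 with the replicate block, and Mrpl32 between the concentrations (0.63) became -0.16 in libraries over 5 M reads and -0.069 with the block; the cause was not tested. Same-numbered libraries of different groups correlated weakly in their deviations from group means, at -0.00657 to 0.0922, 0 of them over 0.1. Their median correlations were 0.0509 (2x Str let-7f and vehicle), 0.0444 (Str let-7f and vehicle) and 0.0467 (between the concentrations). Differently numbered libraries had medians of -0.012, -0.00327 and -0.0069 in that order. Whether a replicate number marks something the libraries share was not tested. The other 319 group values were counts that did not change or differences that moved by less than 1 SD between libraries (0.0828 for the members' median, 0.131 for large minus small, 0.094 for mitoribosomal minus cytosolic). Each of these SDs was larger than the reported values it was set against. A median or difference could therefore vanish or change sign and still be counted among the 319. The other 786 single-gene values kept direction and side of the threshold, but 46 of them, in 22 of 30 gene and comparison pairs, differed in size from the reported value by over 1.5 times. Counts of called genes over the whole table depended more on the setting: 397 in Str let-7f became 767 under DESeq2, 617 with array weights and 199 in libraries over 5 M reads, and 285 in 2x Str let-7f became 620, 647 and 65. Leaving out single libraries moved the members' median between -0.042 and 0.029 in Str let-7f, between -0.073 and 0.0033 in 2x Str let-7f, and between -0.089 and -0.026 between the concentrations. No scaling moved the median of all genes by over 0.1. At the depth of the shallowest library 3 reads equal 1.94 reads per 1 M, which limits low members such as Mrpl52 and Mrpl14.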
